A study of Bos taurus with 6 samples.

Results

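Cholesterol efflux and apolipoprotein genes were described in intramuscular fat (IMF) of steers and bulls of the Qinchuan breed of China. The 10 genes were chosen by name and not by a cutoff on their values, although earlier results of these data were known. They are ABCA1, ABCG1, SCARB1, NR1H3, APOA1, APOE, APOD, PLTP, LIPA and NPC1. All 10 were found by symbol among the 25444 genes of the mRNA table. The fat was dissected from the sternomandibularis, a neck muscle. Steers, called CM in the labels, were weaned at 3 months of age, castrated by surgery at 6 months and slaughtered at 24 months. Bulls, called IM, were weaned and slaughtered at the same ages and stayed intact. Both groups received the same concentrate diets, and the paper's methods give a common sire. For mRNA there was 1 pooled library for steers and 1 for bulls, and for small RNA there were 2 pooled libraries in each group. According to the design text, RNA of 6 animals went into each mRNA pool and of 3 into each small RNA pool, while the sample descriptions give 3 and 1.

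Cells that take up more cholesterol than they use return it to lipoproteins in the blood, a process called cholesterol efflux. Lysosomal acid lipase (LIPA) frees cholesterol from its esters, NPC1 moves it out of the lysosome, the transporters ABCA1 and ABCG1 pass it across the plasma membrane to apolipoprotein A-I and to high-density lipoprotein (HDL), and the nuclear receptor encoded by NR1H3, liver X receptor (LXR) alpha, senses oxidised sterols and switches on several of these genes. Adipose tissue holds a large store of free cholesterol, much of it in fat cells, and its macrophages handle lipid that fat cells release.

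The mRNA counts summed to 12677375 in the steers library and to 9868415 in the bulls library. Adipocyte markers were present in both libraries, as the tissue label requires: all 7 of 7 listed genes were counted, with a sum of 29650 counts in steers and 34672 in bulls. Skeletal muscle genes were also counted, all 10 of 10 listed, with a sum of 34212 counts in steers and 50150 in bulls. They made up 0.27% of the steers library and 0.508% of the bulls library, and the adipocyte markers 0.234% and 0.351%. Of 15 macrophage markers, 13 were in the table and all 13 had lower scaled counts in steers, 11 of them past the threshold given next. Their sum was 22786 counts in steers and 49833 in bulls, and none of the 13 was at 0. In whole tissue, fewer cells of a type and less RNA per cell cannot be told apart.

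Of the 10 genes, the cholesterol exporters ABCA1 and ABCG1 and the lysosomal lipase LIPA fell in steers by more than 2-fold, and no gene of the 10 rose past that threshold. SCARB1 and APOD were also lower in steers, by less than 2-fold, while NR1H3, APOE, PLTP and NPC1 were higher in steers by less than 2-fold. APOA1 could not be told apart between the libraries at this depth. Counts were divided by a size factor for each library, 1.04 for steers and 0.959 for bulls, which sets the typical gene equal between them. A gene was called when an exact binomial test (two-sided) of its pair of counts gave an adjusted p under 0.05 and the log2 fold change exceeded 1 in size. Of all 17752 genes tested, 4.37% were called higher and 8.13% lower in steers. Of the 10 genes, 0 were called higher and 3 lower. Without the fold threshold the same test gave 4 higher and 5 lower, and of all 17752 genes 3535 higher and 3254 lower. With 1 library per group the test compares 2 pools and not castration with no castration, and the 95% intervals (Clopper-Pearson for fold changes) cover counting error only.

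**Figure D1:**
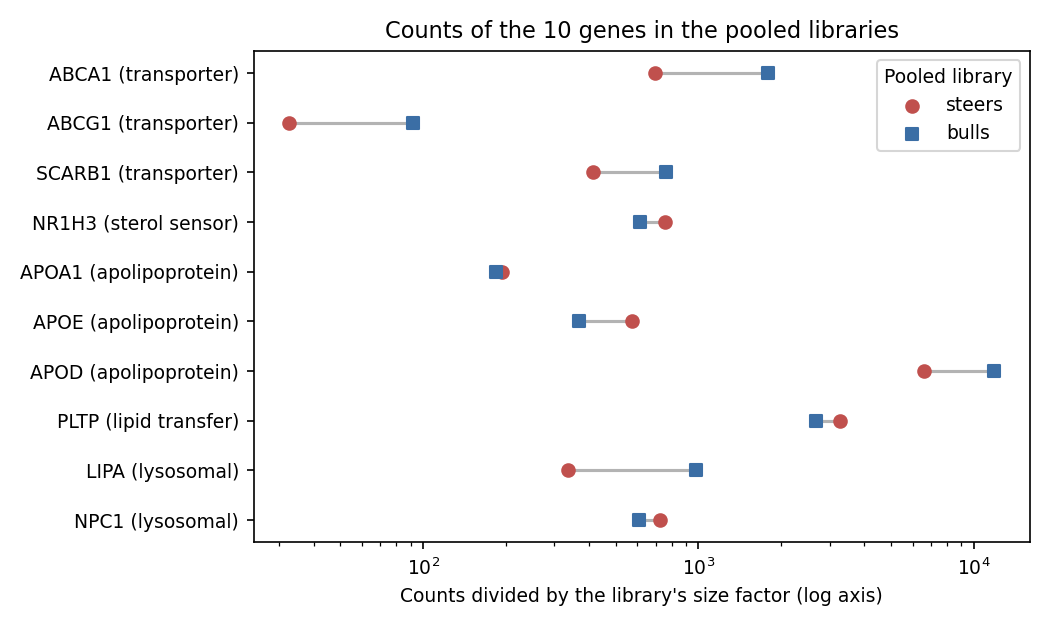
Counts of the 10 genes divided by the library's size factor (x axis, log scale) in the steers library (red circles) and the bulls library (blue squares), with 1 point per pooled library. ABCA1, ABCG1, SCARB1, APOD and LIPA lie lower in steers, and the gap is smallest for APOA1, at 193 against 184 scaled counts.

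ABCA1 loads phospholipid and cholesterol onto lipid-poor apolipoprotein A-I, the first step in making HDL. It was counted 727 times in steers and 1717 times in bulls, and after scaling the bulls library was 2.57-fold higher (log2 fold change of steers against bulls -1.36, interval -1.49 to -1.24; exact binomial test, adjusted p = 6e-109). Only 4.62% of the 12787 genes with at least 10 counts in each library had a lower fold change. ABCG1, which passes cholesterol on to HDL particles already formed, was counted 34 times in steers and 88 times in bulls. This gives -1.49 on the log2 scale, with the widest interval of the 10 genes at -2.11 to -0.91 (exact binomial test, adjusted p = 6.3e-07). The interval of ABCA1 lay wholly past 2-fold and that of ABCG1 did not, so the size of the ABCG1 difference is set less firmly.

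SCARB1 encodes the scavenger receptor class B type I, which binds HDL and lets cholesterol pass in either direction. It was counted 431 times in steers and 729 times in bulls, a bulls level 1.84-fold higher (log2 fold change -0.88, interval -1.06 to -0.71). The difference was below the fold threshold, although the interval reached past it. With libraries scaled to total counts instead, SCARB1 stood at -1.12 and was called.

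NR1H3, the sterol sensor, went the other way from the exporters that it is known to switch on. It was counted 792 times in steers and 589 times in bulls, 1.24-fold higher in steers (log2 fold change 0.31, interval 0.15 to 0.46). The gene was not called, and 73.2% of genes had a lower fold change. Scaled to total counts, NR1H3 differed by only 0.07 on the log2 scale.

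The 3 apolipoproteins among the 10 genes did not move together. APOA1, the main protein of HDL, which liver and intestine make, was counted 201 times in steers and 176 times in bulls (log2 fold change 0.07, interval -0.23 to 0.37), and its direction turned to -0.17 when the libraries were scaled to total counts. APOE, which carries lipid to cell surface receptors and is made by macrophages and fat cells among others, was counted 598 times in steers and 353 times in bulls, 1.56-fold higher in steers (log2 fold change 0.64, interval 0.45 to 0.83). This was the largest difference towards steers among the 10 genes, at the scaling used and with total counts (0.40), and it stayed below the fold threshold. APOD is a lipocalin that binds small lipids and shares little with the other apolipoproteins but its name. It was counted 6894 times in steers and 11433 times in bulls, 1.8-fold higher in bulls (log2 fold change -0.85, interval -0.90 to -0.81). The interval of APOD ended short of 2-fold, and of the scalings tried only total counts, with -1.09, put the gene past the threshold.

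PLTP, the phospholipid transfer protein, moves phospholipid between lipoproteins and remodels HDL. It was counted 3419 times in steers and 2557 times in bulls, 1.23-fold higher in steers (log2 fold change 0.30, interval 0.22 to 0.37).

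The lysosomal genes were split. LIPA was counted 350 times in steers and 938 times in bulls, 2.92-fold higher in bulls, which was the largest difference of the 10 genes (log2 fold change -1.54, interval -1.73 to -1.37; exact binomial test, adjusted p = 5.2e-72). NPC1, the next step on the path out of the lysosome, was counted 755 times in steers and 583 times in bulls (log2 fold change 0.25, interval 0.09 to 0.41) and was not called. With total-count scaling NPC1 stood at 0.01 and PLTP at 0.06, so the small differences of both towards steers rest on the scaling. That scaling moved the median of all genes counted in both libraries by -0.24. With it, 5 of the 10 genes were called lower, against 2006 of all 17752 genes.

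Across the 10 genes the median log2 fold change was -0.39, against 0.00 for all 15587 genes counted in both libraries, with 5 genes above 0 and 5 below, or 4 and 6 with total-count scaling, which turns APOA1. In total 9 of the 10 intervals excluded 0, and those of ABCA1 and LIPA lay wholly past 2-fold. No spread between pools could be measured. With a coefficient of variation of 0.2 between pools put into the exact test of edgeR, ABCA1, ABCG1 and LIPA were still called (adjusted p = 0.025, 0.049 and 0.0083). With 0.4 put in, none of the 10 genes was (adjusted p of these 3 genes = 1). Of all 17752 genes tested, 368 were called higher and 762 lower with 0.2, and only 52 and 93 with 0.4.

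**Figure D2:**
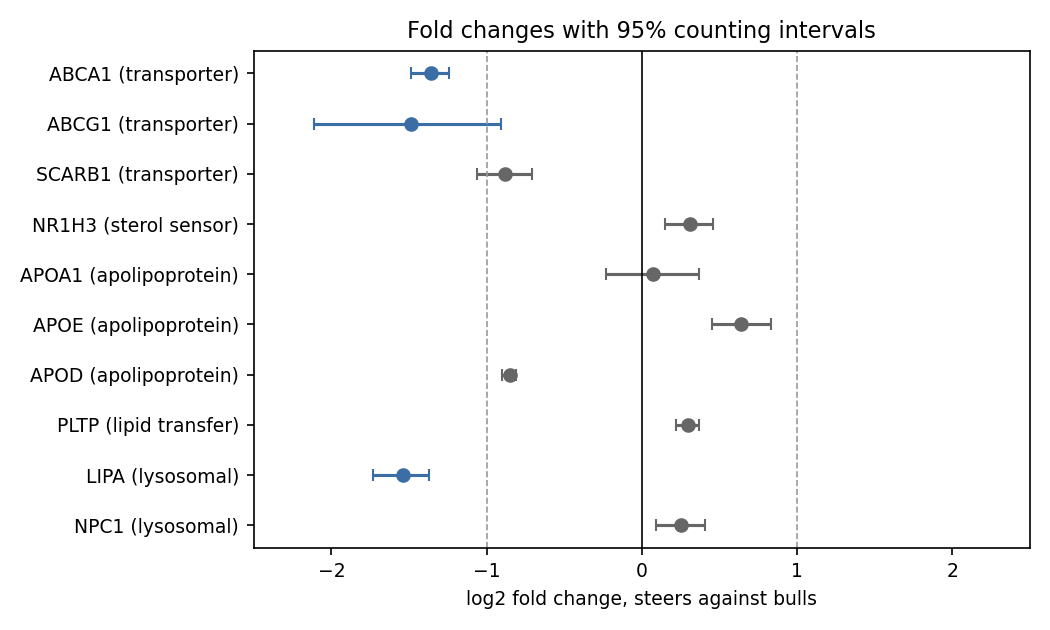
Log2 fold change of steers against bulls (x axis) for each of the 10 genes, with bars for the 95% counting interval; blue points were called lower in steers, grey points were not called, and dashed lines mark 2-fold. The intervals of ABCA1 and LIPA end left of the 2-fold line, that of ABCG1 crosses it, and that of APOA1 spans 0.

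The genes were also compared with each other, since the ratio of the counts of a pair of genes within a library does not depend on the scaling. A ratio itself depends on transcript length, so only its change between the libraries was read. Of the 45 pairs, 34 had a 95% interval of the change that excluded 0 and 11 did not, without adjustment for the number of pairs. ABCA1 and ABCG1 differed in fold change by 0.13 on the log2 scale (interval -0.47 to 0.76), ABCA1 and LIPA by 0.18 (-0.04 to 0.40), and ABCG1 and LIPA by 0.05 (-0.59 to 0.67). No difference among these 3 genes was thus detectable at this depth, although the intervals that involve ABCG1 are wide. SCARB1 differed by less than ABCA1 and LIPA did: the ratio of ABCA1 to SCARB1 changed by -0.48 (-0.70 to -0.26) and that of LIPA to SCARB1 by -0.66 (-0.92 to -0.41).

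The largest changes of ratio set the lower genes against APOE. There were 1.22 ABCA1 counts per APOE count in steers and 4.86 in bulls, a change of -2.00 on the log2 scale (interval -2.23 to -1.77), and APOE moved against LIPA by 2.18 (1.92 to 2.45). ABCA1 and its activator NR1H3 parted by -1.67 (-1.87 to -1.47). The consecutive lysosomal steps LIPA and NPC1 parted by -1.79 (-2.04 to -1.55). NR1H3, PLTP and NPC1 kept nearly the same ratios in both libraries, with changes of 0.01 (-0.16 to 0.18) for NR1H3 to PLTP, 0.05 (-0.17 to 0.28) for NR1H3 to NPC1 and 0.05 (-0.13 to 0.22) for PLTP to NPC1. APOD and SCARB1, which do not share a role, kept theirs as well, with a change of 0.03 (-0.15 to 0.21).

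Macrophages are known for high expression of the LXR-driven exporters and of LIPA, so the 10 genes were set beside the summed counts of cell type markers, a comparison chosen after the counts had been seen. The macrophage sum was lower in steers by 1.25 on the log2 scale (-1.25, interval -1.27 to -1.23), with single markers from -2.64 for MSR1 to -0.64 for CD163. The median of the 13 markers was lower than the sum, at -1.70. CSF1R (-0.92) and CD163, which fell least, held many of the summed counts, 7057 and 5611 in steers. The ratios to the sum therefore depend on these markers, and the counting intervals do not cover the spread between markers. Relative to it, ABCA1 changed by -0.11 (-0.24 to 0.02) and ABCG1 by -0.24 (-0.86 to 0.34), while LIPA changed by -0.29 (-0.48 to -0.11). SCARB1 and APOD were higher relative to this sum, by 0.37 (0.19 to 0.55) and 0.40 (0.35 to 0.45), and NR1H3 and APOE by 1.56 (1.40 to 1.71) and 1.89 (1.70 to 2.08). The part of macrophage content in these differences was not tested. T cell markers were lower in steers as well, 6 of 7 called, with 143 against 760 counts and CD3G at 0 in steers.

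Against the adipocyte sum, which was lower in steers by less (-0.35), ABCA1 changed by -1.01 (-1.14 to -0.89), ABCG1 by -1.15 (-1.76 to -0.56) and LIPA by -1.20 (-1.38 to -1.02). APOE was higher relative to adipocyte markers by 0.99 (0.79 to 1.18), and NR1H3, PLTP, NPC1 and APOA1 by 0.42 to 0.65. Fibroblast markers took 12.4% of the steers library and 7.69% of the bulls library, mostly through collagen genes. All 10 genes were lower relative to that sum, from -2.47 for LIPA to -0.29 for APOE.

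**Figure D3:**
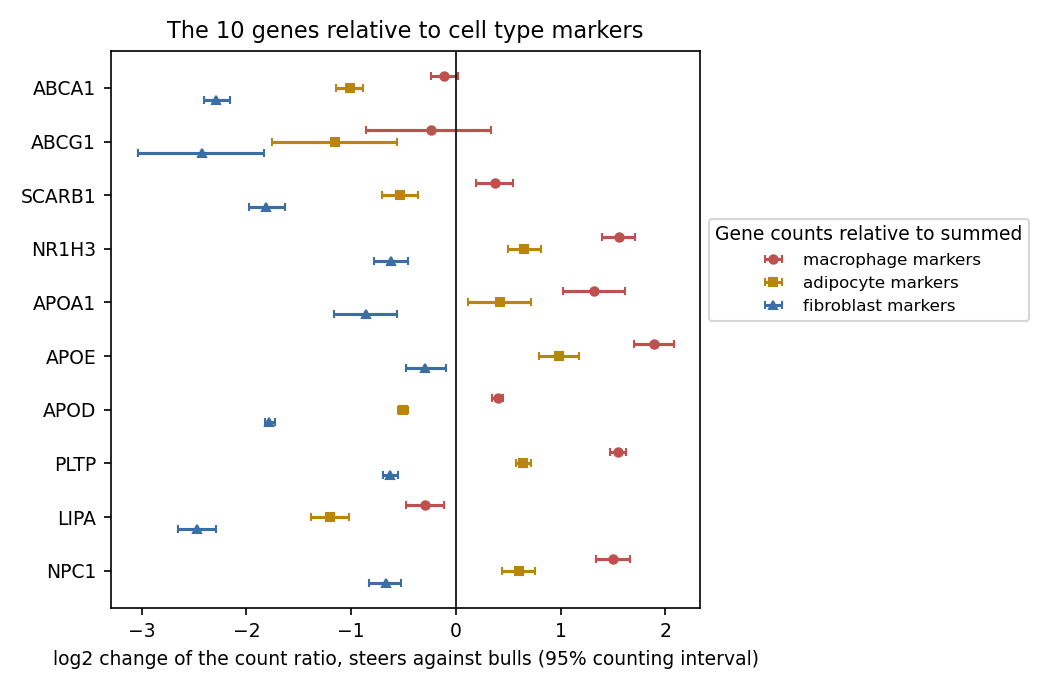
Change between steers and bulls of the ratio of each gene's counts to the summed counts of macrophage (red circles), adipocyte (gold squares) or fibroblast markers (blue triangles), on the log2 scale (x axis) with 95% counting intervals. The intervals of ABCA1 and ABCG1 include 0 against the macrophage sum, which fell less than the median macrophage marker. Both genes lie below 0 against the other sums.

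Other genes of sterol transport were followed by a list of 47, of which 43 were in the table and 33 had a count. Of these 33 genes, 2 were called higher and 5 lower in steers. The 30 counted in both libraries had a median log2 fold change of -0.17, or -0.22 with LIPC, at 0 in steers and 5 in bulls, set at a floor of 3 counts. Raw counts are given for these genes, with the scaled log2 fold change of steers against bulls in parentheses. The partners of LXR alpha differed little: NR1H2, which encodes LXR beta, stood at 0.12 (1199 against 1014 counts), and the shared partners RXRA and RXRB at -0.22 and 0.11. Among the ABC transporters, ABCA7, a relative of ABCA1, fell from 61 counts in bulls to 30 in steers (-1.15, interval -1.83 to -0.49), and the sterol exporters ABCG5 and ABCG8 of liver and gut had 2 counts in all.

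Further genes of the lysosome and of cholesterol esters were not called. NPC2, which hands cholesterol to NPC1, stood at -0.45 with 2384 against 2995 counts. SOAT1, which makes cholesterol esters, and NCEH1, which cleaves them in the cytosol, stood at -0.74 and -0.75. LIPE, the hormone-sensitive lipase of fat cells, stood at -0.02.

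Of 12 further apolipoproteins, 11 were in the table, and 8 of them had no count in either library, among them APOB and APOC3. CLU, also known as apolipoprotein J, was by contrast counted 80325 times in steers and 63159 times in bulls (0.22), and APOM 22 and 27 times.

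Among receptors for lipoproteins, MSR1, the scavenger receptor A of macrophages, which is also in the macrophage list, fell from 761 counts in bulls to 133 in steers (-2.64, interval -2.92 to -2.37). OLR1, a receptor for oxidised lipoprotein, fell from 15 counts to 1 (-4.03, interval -9.42 to -1.33). LIPG, the endothelial lipase that breaks down HDL phospholipid, rose from 34 to 189 counts (2.35, interval 1.82 to 2.92). Enzymes that make oxysterols, the ligands of LXR, were lower in steers: CH25H fell from 87 to 45 counts (-1.07, interval -1.63 to -0.54), and CYP27A1, with 2395 and 1678, stood at -0.64 without a call. GRAMD1C, a carrier of sterol between membranes, fell from 33 to 10 counts (-1.84, interval -3.03 to -0.79).

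LXR switches on ABCA1, ABCG1, APOE, PLTP and NR1H3 among many other genes, and 5 of the 19 listed targets are members of the 10. Of the other 14 targets, 12 were in the table and 9 had a count, of which 2 were called higher and 1 lower. FASN, fatty acid synthase, rose from 5496 to 58834 counts (3.30) and LPL, lipoprotein lipase, from 2253 to 7811 (1.67); the study picked both from these libraries, so they are not independent evidence of a direction. MYLIP, a ubiquitin ligase, stood at -0.59, LPCAT3 at -0.40 and SREBF1 at 0.25. The LXR targets therefore split between directions, with 6 of the 13 genes counted in both libraries above 0 and 7 below and a median of -0.11.

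SREBP2 is the factor that switches on cholesterol synthesis and uptake when cells are short of sterol. The list of 11 SREBP2 targets used here holds no member of the 10. All 9 listed targets with counts were above 0, although FDFT1 and SREBF2 were not with total-count scaling; 5 were called higher and 0 lower, and the median was 1.19. INSIG1, which holds SREBP in the endoplasmic reticulum, rose from 145 to 1237 counts (2.97, interval 2.72 to 3.23). SQLE, squalene epoxidase, rose from 35 to 115 (1.59), and IDI1 and LSS, further enzymes of synthesis, rose by 1.33 and 1.19. The sum over the list was 5364 counts in steers and 2641 in bulls, while ABCA1, ABCG1 and LIPA went the other way in the same libraries.

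**Figure D4:**
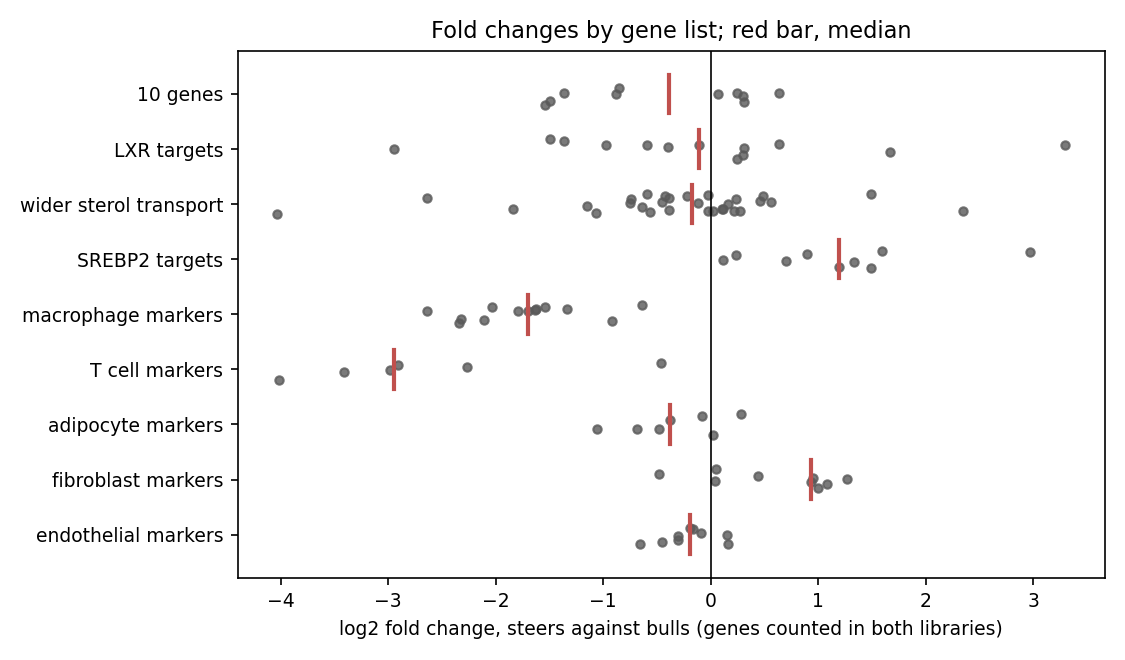
Log2 fold change of steers against bulls (x axis) of each gene counted in both libraries (grey points), by gene list, with a red bar at the median of the plotted genes. The 10 genes spread on both sides of 0, all 9 SREBP2 targets lie above 0 (FDFT1 and SREBF2 do not with total-count scaling), and all 13 macrophage markers lie below 0.

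Genes next to the 10 on the chromosome were looked up in the order of RefSeq's annotation of ARS-UCD2.0, a newer assembly than the one the counts were made on, after the counts had been seen. LIPA lies between CH25H and IFIT2, an interferon-induced gene, and both fell in steers too, IFIT2 from 25 counts to 4 (-2.77, interval -4.75 to -1.23). Further out, STAMBPL1 (-0.09), ACTA2 (-0.66), FAS (-0.54), IFIT3 (-0.47) and IFIT5 (0.26) were not called. The other called neighbours went against their gene: SPI1 near NR1H3 (-1.85), BDH1 near APOD (2.64) and ZSWIM1 near PLTP (-1.34). TOMM40, a mitochondrial import gene beside APOE, had nearly the same log2 fold change as APOE, 0.61 (interval 0.39 to 0.83) with 467 and 281 counts. The apolipoprotein genes on the other side of APOE, APOC4 and APOC2, had no count. In the other apolipoprotein cluster, APOC3 and APOA5 had no count and APOA4 had 1, in bulls, so APOA1 was the only apolipoprotein gene of that cluster with more. PLTP (0.30) and its neighbour CTSA, a lysosomal protease (-0.50, interval -0.57 to -0.43), lay on opposite sides of 0. Use of strand in the counting is not given in the sources used here, so reads of overlapping neighbours could not be separated.

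The small RNA libraries are the only replicated readout, and they show miRNAs that are known in other mammals to repress ABCA1 or ABCG1 (13 miRNAs listed) or SCARB1 (4 listed). No target site in bovine transcripts was searched. The steers libraries held 10452582 and 8859844 counts, the bulls libraries 7784227 and 6556511. Of the 17 miRNAs, 16 passed the filter on low counts, and miR-96, with 1 count in steers replicate 2, 1 in bulls replicate 2 and 0 elsewhere, did not. The quasi-likelihood test of edgeR, run over 1073 sequences, called 7.08% of them higher and 7.08% lower in steers. Of the 16 miRNAs, 1 was called higher, 4 were called lower, and the median log2 fold change was -0.73, against -0.07 for all sequences. The mature sequences of the called miRNAs and of miR-33a, which shares its seed with miR-33b, are shown as the study lists them, written 5′ to 3′ as DNA with the seed, bases 2 to 8, in capitals.
miR-33a: gTGCATTGtagttgcattgca
miR-33b: gTGCATTGctgttgcattgc
miR-106b: tAAAGTGCtgacagtgcagat
miR-185: tGGAGAGAaaggcagttcctga
miR-223: tGTCAGTTtgtcaaatacccca
miR-10b: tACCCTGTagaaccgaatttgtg

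The miR-33 pair is a well-known repressor of ABCA1, and RefSeq places the MIR33A gene inside SREBF2 and the MIR33B gene inside SREBF1. miR-33b was counted 155 and 98 times in the steers libraries and 432 and 345 times in the bulls libraries. This was 15.7 ± 5.97 CPM, counts scaled to a common library total with TMM factors, in steers and 47.1 ± 14.3 CPM in bulls (mean ± SD, n = 2 each). The log2 fold change was -1.59 with an SE of 0.49 (edgeR adjusted p = 0.0149). miR-33a was counted 28 and 22 times in the steers libraries and 59 and 58 times in the bulls libraries, and was not called (-1.18, SE 0.54; edgeR adjusted p = 0.125). As both sequences share their seed and most other bases, how reads were divided between them is uncertain. The host transcripts were not lower in steers: SREBF1 was counted 1999 times in steers and 1548 times in bulls (0.25, interval 0.15 to 0.34), and SREBF2 1329 and 1035 (0.24, interval 0.12 to 0.36), while scaled to total counts they stood at 158 and 157 CPM and at 105 and 105 CPM. Thus the steers libraries held less miR-33b together with less ABCA1 mRNA.

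miR-106b, a relative of the miR-17 family, was counted 257 and 186 times in the steers libraries and 695 and 540 times in the bulls libraries (log2 fold change -1.45, SE 0.47; edgeR adjusted p = 0.0196). miR-10b, known to repress ABCA1 and ABCG1 in mouse macrophages, was the only listed miRNA called higher. It was counted 2183186 and 1833794 times in the steers libraries and 916998 and 673224 times in the bulls libraries, or 247000 ± 46700 against 96700 ± 34700 CPM (SD, n = 2; log2 fold change 1.35, SE 0.40; edgeR adjusted p = 0.0123). miR-10b was thus higher where ABCA1 and ABCG1 mRNA was lower, and miR-33b and miR-106b were lower there.

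Of the repressors of SCARB1, miR-223 showed the largest difference of the list. This miRNA, abundant in neutrophils and other myeloid cells, was counted 41 and 23 times in the steers libraries and 223 and 281 times in the bulls libraries (-2.91, SE 0.56; edgeR adjusted p = 1.51e-05). Macrophage markers were lower in steers mRNA beside it, and their part in this difference was not tested. miR-185 was counted 136 and 73 times in the steers libraries and 361 and 218 times in the bulls libraries (-1.45, SE 0.50; edgeR adjusted p = 0.034). miR-125a stood at -0.72 and was not called.

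The other 9 of the 13 miRNAs of ABCA1 or ABCG1 were not called. miR-144 (4 and 2 counts in steers against 15 and 9 in bulls) and miR-758 (11 and 14 against 33 and 28) had log2 fold changes of -1.94 and -1.26 (edgeR adjusted p = 0.0803 and 0.149). miR-148a stood at 0.71 and miR-27a-3p at -0.75, and miR-27b, miR-26a, miR-26b, miR-128 and miR-145 stood between -0.64 and 0.64. The calls rest on few libraries. A fit without 1 library leaves a single library in that group, and calls changed in such fits, for the list and for all sequences. Without steers replicate 1, miR-223 stood at -3.41, miR-33b at -2.00 and miR-10b at 1.19. Without steers replicate 2 they stood at -2.46, -1.21 and 1.56. Without bulls replicate 1, miR-223 stood at -2.73, miR-10b at 1.97 and miR-148a at 1.32. In that fit miR-33b, miR-106b and miR-185 stood at -1.05, -0.89 and -0.66. Without bulls replicate 2, miR-33b stood at -1.90 and miR-10b at 0.99.

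**Figure D5:**
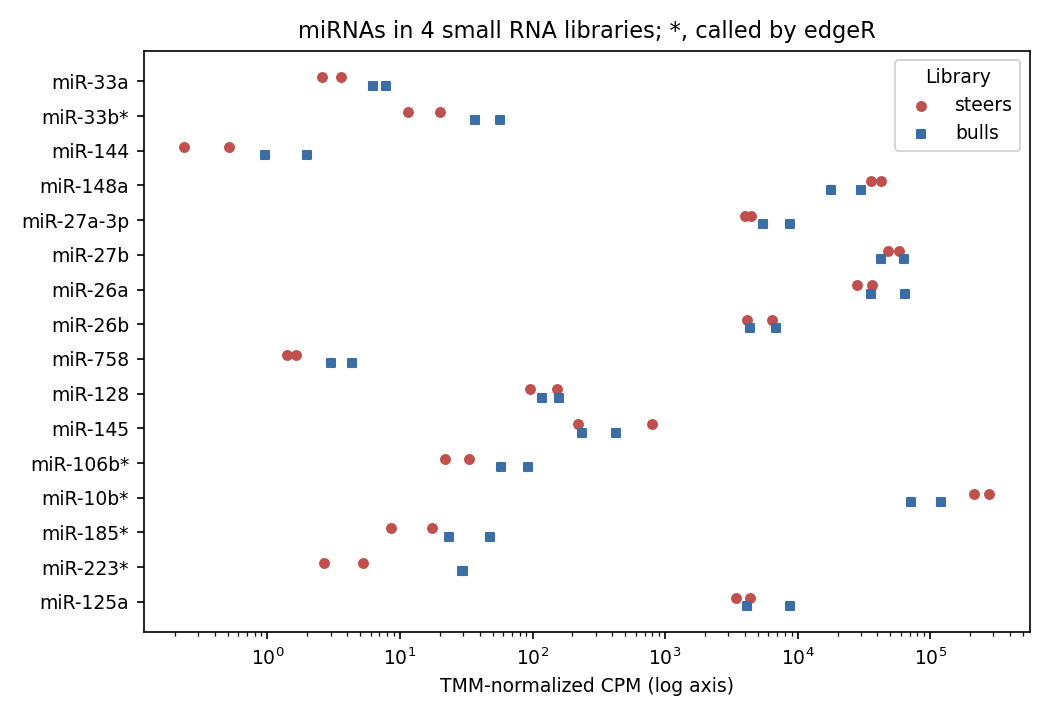
CPM after TMM scaling (x axis, log scale) of 16 miRNAs in the 2 steers libraries (red circles) and the 2 bulls libraries (blue squares), with 1 point per library and an asterisk on the 5 miRNAs called. The points of miR-223 are the farthest apart between groups, and miR-10b is the only called miRNA whose steers libraries lie to the right.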

How the data were processed

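The authors deposited raw counts for both data types. For mRNA, trimmed Ion Proton reads were mapped to bovine sequence by the authors using MapSplice; which program counted them is not given in the sources used here. For miRNA, Illumina reads were matched to miRBase and to bovine sequence by BWA, and miRDeep predicted further miRNAs. The submitters' processing notes name BWA and GRCh37.p13, a human build, which goes against these methods. RNA was pooled over animals before library construction. The miRNA p-values therefore cover only the spread between these libraries, which may be technical. The mRNA p-values cover counting error only.

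Libraries were grouped by title (CM, steers; IM, bulls). For mRNA, median-of-ratios scaling and an exact binomial test per gene (doubled smaller tail, scipy 1.17.1, numpy 2.4.6) were run over genes with at least 1 count, with Benjamini-Hochberg adjustment; a count of 0 was set at 3 counts for the fold threshold, and medians of lists were taken over genes counted in both libraries. Changes of count ratios have conditional exact intervals. For miRNA, edgeR 4.0.16 under R 4.3.3 was run over sequences that passed filterByExpr, with TMM factors and the quasi-likelihood test on group. Both procedures were tested on simulated data. The common biological coefficient of variation of the miRNA libraries was 0.339.

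Alternatives were total-count and TMM scaling, a minimum of 10 counts, assumed coefficients of variation of 0.2 and 0.4, no fold threshold, and for miRNA DESeq2 1.42.0 and its size factors, total counts, no filter, the replicate number as a block and each library left out in turn. EBSeq, used by the authors, was not run. The members and lists were chosen with earlier results of these data known. Named are all 10 genes, of each other list the called genes with at least 10 counts in each library, at most 6 per direction, genes whose role needed naming, and every miRNA that passed the filter; OLR1, IFIT2 and the neighbouring genes were named after their values were seen. Levels were not compared between genes, since transcript lengths were not used here. The values of some genes of the lists are not reported here.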

Additional observations from a re-analysis of the deposited data

How the results depend on the processing

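TMM scaling and a minimum of 10 counts left all counts of called mRNAs within 1.5 times those reported. Of 50 values of the 10 genes under other settings, 44 kept direction and call. The 10-count minimum and the assumed coefficients of variation reuse the same fold changes. Under them no direction could turn and no gene below 2-fold could gain a call, so many of the 44 were fixed beforehand. Total-count scaling, which lowered the share of all calls that were higher in steers from 35% to 21.2%, gave 5 of the 10 genes lower and turned APOA1 to -0.17. With an assumed coefficient of variation of 0.4, only 52 of all 17752 genes were called higher and 93 lower. There, 0 of the 10 genes were called lower, sterol transport had 0 higher and 0 lower, LXR targets 1 and 0, and SREBP2 targets 0 higher. With 0.2, 2 sterol transport genes were lower and 3 SREBP2 targets higher, against 368 higher and 762 lower of all genes. Without the fold threshold there were 4 higher and 5 lower of the 10 genes, against 3535 and 3254 of all 17752 genes. Sterol transport had 9 and 13, LXR targets 6 and 5, and 8 SREBP2 targets were higher.

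For miRNAs, total counts moved the median of all sequences by -0.49 and left 0 of the list called in each direction. Of all 1073 sequences that setting called only 1 higher and 0 lower. No filter left 0 of the list higher and 1 lower, against 34 and 36 of all 8303 sequences. Leaving out a library, where the lone library is assumed to vary like the others, changed which miRNAs were called. Directions turned for miR-27b (-0.30 to 0.50), miR-26a (-1.03 to 0.04) and miR-26b (-0.41 to 0.47). They also turned for miR-128 (-0.49 to 0.27), miR-145 (-0.54 to 1.32) and miR-125a (-1.19 to 0.11). miR-27b stood at 0.07 with DESeq2 or its size factors and at 0.01 with the replicate block. DESeq2 called 1 higher and 3 lower, without miR-185 (adjusted p = 0.067), and 71 higher and 54 lower of all sequences. The replicate block gave 1 higher and 6 lower, adding miR-33a (-1.19) and miR-758 (-1.24), and moved all calls from 76 higher and 76 lower to 133 and 119; the same-numbered libraries share only a number (correlation of deviations 0.33). The cause of these shifts was not tested. ABCG1, miR-33a, miR-144 and miR-758 had under 100 counts in each library, which limits their precision.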

Other observations

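Of 10 hepatocyte genes, which share several apolipoproteins and plasma carriers with the efflux pathway, APOB, APOH, FGA and AHSG had no count and ALB had 1, in bulls. TTR, which carries thyroid hormone and retinol-binding protein, rose in steers from 22 to 339 counts (3.82, interval 3.20 to 4.52), and HP, haptoglobin, fell from 944 to 124 (-3.05, interval -3.33 to -2.78). TF rose from 10 to 39 counts (1.84) and FGB fell from 18 to 4 (-2.29).

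Schwann cell markers were all above 0, 2 of 5 called, among them MBP, a myelin protein, which rose from 64 to 162 counts (1.22). Of 9 endothelial markers 0 were called and 7 lay below 0. Their raw sums were 10540 counts for steers and 10066 for bulls, or -0.06 after scaling (interval -0.10 to -0.02). Of 9 fibroblast markers 3 were called higher. Of 6 B cell markers 4 had a count and 1 was called lower, with 24 counts in steers and 94 in bulls in sum. Skeletal muscle genes were mixed: MYH1 of fast fibres rose (1.15), and MYH7 of slow fibres (-2.23) and DES (-1.26) fell. Among adipocyte markers only FABP4 was called (-1.06, 3951 counts in steers and 7574 in bulls).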
